A study of Homo sapiens with 4 samples.

Results

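The genes whose products write, copy, remove and protect DNA methylation were followed here through their own methylation: DNMT1, UHRF1, DNMT3A, DNMT3B, DNMT3L, TET1, TET2, TET3, ZFP57 and TRIM28. Their cytosines were chosen by position and coverage. They were the CpG cytosines inside each gene's hg19 span or within 5 kb of it, with 5 or more reads in each of the 4 libraries. No cytosine without a methylated read was listed, so each also needed a methylated read in every library. The choice thus depended in part on methylation. This gave 460 cytosines of the 907719 in the whole data set that met the same coverage, and of the 1588 that any library listed in these windows. The cells were of the H9 line, established from a human embryo and pluripotent in culture, and the assay was bisulfite sequencing of genomic DNA enriched with a methylation capture kit. There were 4 libraries: KO naive (genotype B3GALT5-/-, 2iLAF medium), WT naive (wild type, 5iLAF medium), KO primed (B3GALT5-/-, basal medium) and WT primed (wild type, basal medium). B3GALT5 encodes a glycosyltransferase that acts on glycolipids. With 1 library in each group there was no replicate check on any difference, and the p-values below compare libraries, not conditions. The labels do not say whether the knockout cells came from 1 clone. The naive libraries differed in medium as well as genotype, which cannot be told apart. The state and genotype labels were not checked against marker genes or the targeted gene here.

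DNMT1 copies methylation onto the new strand after DNA replication, and UHRF1 brings it to hemimethylated sites. DNMT3A and DNMT3B place methylation on unmethylated DNA, helped by the catalytically inactive cofactor DNMT3L, and the TET enzymes oxidise 5-methylcytosine as a step towards its removal. ZFP57, a KRAB zinc-finger protein, binds methylated motifs at imprinted regions and recruits TRIM28, a corepressor scaffold, which keeps those regions methylated while the rest of the genome loses the mark. Naive human pluripotent cells are known for lower genome-wide methylation than primed cells. The values below are methylation levels of the genes' DNA, in which bisulfite does not separate 5-methylcytosine from 5-hydroxymethylcytosine, and say nothing of how much RNA or protein the genes gave.

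The sequence just before a gene's start is where methylation is usually tied to silencing, and 4 of the 10 genes had measured cytosines that could be set on such a sequence. RefSeq held 19 promoter entries for 8 of the 10 genes on build GRCh38.p14, and the deposited positions were on hg19. An entry was therefore placed on the measured cytosines by the spacing of its CpGs, not by coordinates, and 4 entries matched in this way. The 250 bases before each start are printed 5′ to 3′ on the strand of the gene, with the CpGs listed in at least 1 library in capitals. They lie at chr6:29681153-29681402 on the minus strand (ZFP57), chr4:105145625-105145874 on the plus strand (TET2), chr10:68560087-68560336 on the plus strand (TET1) and chr2:25342591-25342840 on the minus strand (DNMT3A), all on GRCh38.p14.
ZFP57: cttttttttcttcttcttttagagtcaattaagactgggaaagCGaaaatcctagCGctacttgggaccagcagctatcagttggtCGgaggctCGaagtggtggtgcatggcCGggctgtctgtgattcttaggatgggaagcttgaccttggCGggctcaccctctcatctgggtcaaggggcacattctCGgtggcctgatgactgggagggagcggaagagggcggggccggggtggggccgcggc
TET2: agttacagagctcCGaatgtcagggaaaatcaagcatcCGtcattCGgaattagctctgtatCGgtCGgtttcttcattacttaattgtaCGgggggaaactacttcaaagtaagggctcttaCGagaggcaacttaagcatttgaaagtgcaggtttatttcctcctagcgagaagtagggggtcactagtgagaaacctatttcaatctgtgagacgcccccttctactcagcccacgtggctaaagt
TET1: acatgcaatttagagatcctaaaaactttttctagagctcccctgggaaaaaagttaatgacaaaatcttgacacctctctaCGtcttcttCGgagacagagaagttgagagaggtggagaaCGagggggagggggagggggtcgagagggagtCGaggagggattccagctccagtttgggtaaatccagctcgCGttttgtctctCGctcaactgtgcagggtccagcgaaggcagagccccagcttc
DNMT3A: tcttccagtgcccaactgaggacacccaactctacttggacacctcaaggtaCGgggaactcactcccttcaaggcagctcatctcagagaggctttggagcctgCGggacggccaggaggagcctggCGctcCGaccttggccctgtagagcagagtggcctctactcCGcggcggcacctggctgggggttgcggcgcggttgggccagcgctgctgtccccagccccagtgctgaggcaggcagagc
In the ZFP57 sequence 7 of 13 CpGs were listed, in the TET2 sequence 7 of 10, in the TET1 sequence 6 of 9 and in the DNMT3A sequence 5 of 13. A CpG in lower case had either no coverage or no methylated read, since the tables hold no cytosine without a methylated read.

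Of these 4 promoters, that of ZFP57 had the highest mean level in each library. Over the printed ZFP57 CpGs the mean level was 60.7% ± 8.88 in KO naive (SD over 6 cytosines with at least 5 reads) and 36.9% ± 8.19 in WT naive (5 cytosines), against 80.4% ± 24.02 in KO primed (5) and 87.3% ± 17.2 in WT primed (6). These means rest on 5 to 15 reads per cytosine. In the TET2 sequence the listed cytosines averaged 7.81% ± 6.37 in KO naive (10 cytosines) and 8.33% in WT naive (1), against 15.3% ± 10.3 in KO primed (11) and 16.3% ± 12.5 in WT primed (11). The TET1 cytosines stood at 2.50% in KO naive (1 cytosine) and 5.41% in WT naive (2), against 12.9% ± 10.3 in KO primed (3) and 4.61% ± 3.23 in WT primed (3). In the DNMT3A sequence and the 50 bases after it, the means were 6.32% ± 2.17 in KO naive (5 cytosines) and 6.90% ± 0.337 in WT naive (2), against 32.3% ± 32.9 in KO primed (2) and 28.9% ± 12.9 in WT primed (3). Levels as low as those of TET1, TET2 and DNMT3A are raised by the absence of cytosines with no methylated read.

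Across all 10 genes the naive libraries carried less methylation than the primed ones, by about as much as the whole data set. The 460 cytosines averaged 63.1% ± 24.3 in KO naive and 60.6% ± 28.1 in WT naive, against 86.5% ± 20.2 in KO primed and 84.4% ± 22.95 in WT primed (SD over cytosines). The whole data set averaged 58.9% in KO naive and 57.7% in WT naive, against 81.2% in KO primed and 80.2% in WT primed. The naive minus primed difference was -23.4 points in KO cells and -23.75 points in WT cells over the 460 cytosines, beside -22.3 and -22.5 points over the whole data set. In KO cells 374 of the 460 cytosines were lower in the naive library and 58 were higher, and in WT cells 344 were lower and 67 higher. The share of lower cytosines was 81.3% in KO and 74.8% in WT cells, beside 84.01% and 76.8% over all cytosines. The median depth of the 460 cytosines was 18 reads in KO naive and 11 in WT naive, against 13 in KO primed and 11 in WT primed. Cytosines with a lowest depth of 5 reads averaged 68.0% in KO naive, 67.3% in WT naive, 89.5% in KO primed and 89.9% in WT primed. Those just outside, with a lowest depth of 4 reads, averaged 66.4%, 67.1%, 89.4% and 87.1% in the same order.

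**Figure D1:**
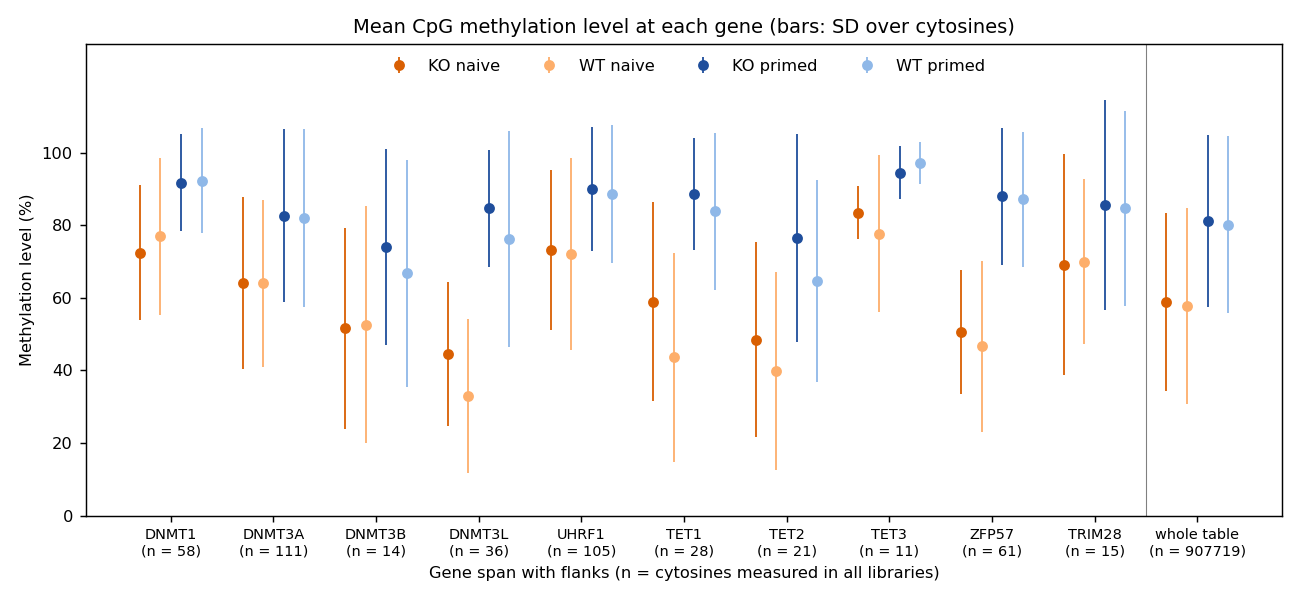
Mean CpG methylation level (%, vertical axis) of each gene with its flanks and of the whole data set, 1 point per library and bars of 1 SD over cytosines (bars can pass 100% because levels are bounded). DNMT3L, TET1, TET2 and ZFP57 show the wide gaps between naive (orange) and primed (blue) points, and both naive points lie below both primed points at every gene.

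At each cytosine the methylated and unmethylated reads of a pair of libraries were set against each other by Fisher's exact test (two-sided, Benjamini-Hochberg adjusted over all 907719 cytosines). A cytosine was called where the adjusted p was under 0.05 and the levels were 25 points or more apart. In KO cells 81 of the 460 cytosines were called lower in the naive library (17.6%, beside 18.2% of all cytosines) and 1 was called higher (0.217%, beside 0.242%). In WT cells 69 were called lower (15%, beside 16.2%) and 4 higher (0.870%, beside 0.442%). The share of calls over the 10 genes was thus close to that of the data set, and the calls were unevenly spread among the genes. ZFP57 had 23 lower calls in KO and 18 in WT cells, DNMT3L 17 and 15, and TET1 10 and 11, while UHRF1 had 5 and 2 although it held 105 cytosines. When read counts were divided by the excess variance between the strands of a CpG, 0 of the 460 cytosines were called in either genotype. At an unadjusted p under 0.05 by the same test, 11 then passed in KO and 16 in WT cells. The shares of all cytosines under this setting were not taken, so these counts cannot be read as particular to the 10 genes. The calls therefore rest on reads being taken as independent. Division also left fewer reads per cytosine to test, so 0 calls does not show that the levels were alike.

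DNMT1, the maintenance methyltransferase, was among the genes that kept most methylation. Its 58 cytosines averaged 72.5% ± 18.6 in KO naive and 76.9% ± 21.7 in WT naive, against 91.7% ± 13.4 in KO primed and 92.3% ± 14.4 in WT primed. The KO naive mean was 79.04% and the WT naive mean 83.4% of the primed mean in the same genotype, beside 72.5% and 71.97% over the whole data set. In DNMT1, 1 cytosine was called lower in KO and 5 in WT cells. Most of its cytosines lay beyond the midpoint of the span, where 36 averaged 77.3% in KO naive and 84.2% in WT naive, against 94.3% in KO primed and 96.2% in WT primed.

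A pair of DNMT1 regions met the rule of size for 1 kb tiles. A tile met it where 5 or more cytosines were measured, their mean levels lay 25 points or more apart, and no fewer than 80% of them differed in that direction. In the tile at chromosome 19, 10243001 to 10244000, which lies past the 3′ end of the span, the mean was 61.9% ± 11.7 in KO naive and 82.0% ± 14.3 in WT naive, against 87.6% ± 7.02 in KO primed and 97.1% ± 6.39 in WT primed (SD over 5 cytosines). That tile passed in KO cells only. The tile at 10256001 to 10257000 passed in WT cells only, with 76.8% ± 18.8 in KO naive and 66.7% ± 22.0 in WT naive, against 100% ± 0 in KO primed and 97.1% ± 4.51 in WT primed (6 cytosines). The only cytosine of the 10 genes called higher in KO naive than in KO primed lay in DNMT1 at 10259613. It was methylated in 11 of 11 reads in KO naive and 4 of 5 in WT naive, against 3 of 9 in KO primed and 12 of 12 in WT primed, so KO primed was the low library. Whether the tiles that passed in 1 genotype differ between genotypes was not tested.

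UHRF1, the hemimethylated DNA reader, also kept most of its methylation. Its 105 cytosines averaged 73.2% ± 21.9 in KO naive and 72.2% ± 26.5 in WT naive, against 89.9% ± 17.1 in KO primed and 88.7% ± 19.02 in WT primed. The naive means were 81.4% of the primed means in both genotypes. At a minimum of 10 reads the KO difference was -8.25 points over 12 cytosines, against -16.7 points. The gene was not uniform. Beyond the midpoint of the span 59 cytosines averaged 82.6% in KO naive and 81.4% in WT naive, against 95.7% in KO primed and 94.6% in WT primed. Before the midpoint 38 cytosines averaged 64.7% in KO naive and 65.8% in WT naive, against 88.3% in KO primed and 88.2% in WT primed.

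The UHRF1 tile with the highest mean level of all 31 tiles over the 4 libraries lay at chromosome 19, 4947001 to 4948000, 38.5 kb into the gene. Its 7 cytosines averaged 83.7% ± 20.4 in KO naive and 88.3% ± 12.4 in WT naive, against 100% ± 0 in KO primed and 99.4% ± 1.64 in WT primed. Nearer the 5′ end the tiles differed among themselves. The tile at 4914001 to 4915000, 5.5 kb into the gene, averaged 52.6% ± 20.7 in KO naive and 36.9% ± 12.3 in WT naive, against 98.1% ± 4.54 in KO primed and 68.1% ± 8.03 in WT primed (6 cytosines). In that tile every cytosine was lower in the naive library in both genotypes. The cytosine at 4914163 stood at 22.2% of 18 reads in KO naive against 100% of 9 reads in KO primed (adjusted p = 2.52e-03, Fisher's exact test). The tile at 4916001 to 4917000, 7.5 kb into the gene, had higher means in the naive libraries (5 cytosines). These were 76.25% ± 6.81 in KO naive and 93.1% ± 6.36 in WT naive, against 64.0% ± 3.65 in KO primed and 84.0% ± 35.8 in WT primed. Its primed libraries had 5.6 (KO) and 5.4 (WT) reads per cytosine.

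DNMT3A, a de novo methyltransferase, held the most cytosines and regions that moved in opposite directions. Its 111 cytosines averaged 64.1% ± 23.6 in KO naive and 64.0% ± 22.9 in WT naive, against 82.7% ± 23.9 in KO primed and 81.97% ± 24.5 in WT primed. Of these, 11 were called lower in KO and 9 in WT cells. At a minimum of 10 reads the WT difference was -3.92 points over 28 cytosines, against -17.96 points. The largest tile difference in WT cells was in the tile at chromosome 2, 25502001 to 25503000, 63.5 kb into the gene, with 64.9% ± 21.9 in KO naive and 45.9% ± 16.04 in WT naive, against 92.3% ± 12.96 in KO primed and 96.3% ± 7.20 in WT primed (10 cytosines). All 10 cytosines there were lower in WT naive, and 80% were lower in KO naive. The cytosine at 25532348 was methylated in 1 of 8 reads in WT naive against 5 of 5 in WT primed (adjusted p = 3.27e-02, Fisher's exact test).

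The neighbouring tile, 25499001 to 25500000, went the other way and was singled out after its values were seen. It averaged 39.0% ± 18.1 in KO naive and 58.9% ± 21.2 in WT naive, against 33.7% ± 27.9 in KO primed and 29.6% ± 32.3 in WT primed (9 cytosines). The difference in WT cells was 29.3 points, and 203 of the 51144 tiles of the data set had one as high or higher, but the tile missed the share of cytosines the rule asks for. All 4 cytosines called higher in WT naive than in WT primed lay here. At 25499704 the level was 38.1% of 21 reads in KO naive and 75% of 20 reads in WT naive, against 14.3% of 28 reads in KO primed and 3.70% of 27 reads in WT primed. At 25499625 it was 22.2% of 9 reads in KO naive and 72.7% of 11 in WT naive, against 11.1% of 9 in KO primed and 11.8% of 17 in WT primed. WT naive was the high library at both sites, and the primed libraries were low in both genotypes.

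A further pair of DNMT3A tiles passed in KO cells only. The tile at 25450001 to 25451000, past the 3′ end, had the largest difference of the DNMT3A tiles in KO cells and averaged 50.9% ± 15.4 in KO naive and 70.4% ± 17.3 in WT naive, against 87.2% ± 22.4 in KO primed and 73.3% ± 10.04 in WT primed (6 cytosines). The tile at 25509001 to 25510000 averaged 46.7% ± 26.0 in KO naive and 65.9% ± 24.7 in WT naive, against 72.6% ± 25.02 in KO primed and 66.5% ± 22.6 in WT primed (9 cytosines). In both tiles the WT libraries differed by less than 1 SD over cytosines.

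DNMT3B, the other de novo enzyme, was thinly covered. Its 14 cytosines averaged 51.7% ± 27.7 in KO naive and 52.6% ± 32.6 in WT naive, against 74.1% ± 26.9 in KO primed and 66.8% ± 31.3 in WT primed, and 1 was called lower in each genotype. Its 1 tile, at chromosome 20, 31375001 to 31376000, stood low in every library, with 23.7% ± 7.75 in KO naive and 21.4% ± 23.2 in WT naive, against 42.8% ± 17.4 in KO primed and 31.5% ± 15.9 in WT primed (5 cytosines).

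DNMT3L, the cofactor of the de novo enzymes, was, with ZFP57 and TET1, among the 3 genes with the largest mean differences between naive and primed libraries in both genotypes, at a minimum of 5 reads and with cytosines weighted equally. Its 36 cytosines averaged 44.6% ± 19.9 in KO naive and 33.0% ± 21.2 in WT naive, against 84.7% ± 16.1 in KO primed and 76.2% ± 29.7 in WT primed. The naive minus primed difference was -40.1 points in KO and -43.3 points in WT cells. Weighted by reads it was -33.6 and -31.0 points, and at a minimum of 20 reads -16.03 and -10.2 points over 12 cytosines. The naive means were 52.7% of the primed mean in KO and 43.3% in WT cells.

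The difference was largest in 1 block, and most of DNMT3L's other cytosines lay in a second block where it was smaller. The tile at chromosome 21, 45678001 to 45679000, 4.5 kb into the gene, held 20 cytosines that averaged 35.0% ± 15.3 in KO naive and 24.5% ± 9.80 in WT naive, against 93.3% ± 8.62 in KO primed and 97.3% ± 7.36 in WT primed. Single levels ran from 11.8 through a median of 30.6 to 60.0% in KO naive and from 7.14 through 23.9 to 40.0% in WT naive. In KO primed they ran from 69.2 through 94.1 to 100% and in WT primed from 71.4 through 100 to 100%. Naive and primed levels thus did not overlap at any pair of cytosines in the block. How many of all tiles lacked such overlap was not counted. Of all 51144 tiles, 2.37% had a difference as low as this one in KO cells (-58.3 points) and 0.495% in WT cells (-72.8 points). At 45678482, 1 of 14 reads was methylated in WT naive against 7 of 7 in WT primed (adjusted p = 1.60e-03, Fisher's exact test). At 45678292, 2 of 17 reads were methylated in KO naive against 16 of 17 in KO primed (adjusted p = 9.37e-05, Fisher's exact test).

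The second DNMT3L block, at 45669001 to 45670000, 13.5 kb into the gene, split by genotype more than by state. Its 14 cytosines averaged 57.1% ± 19.1 in KO naive and 35.5% ± 16.2 in WT naive, against 70.2% ± 14.6 in KO primed and 42.8% ± 17.8 in WT primed. The naive minus primed difference was -13.1 points in KO and -7.26 points in WT cells, short of the 25 points of the rule. It was the most deeply read block of the gene, at 22.0 to 40.2 reads per cytosine.

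**Figure D2:**
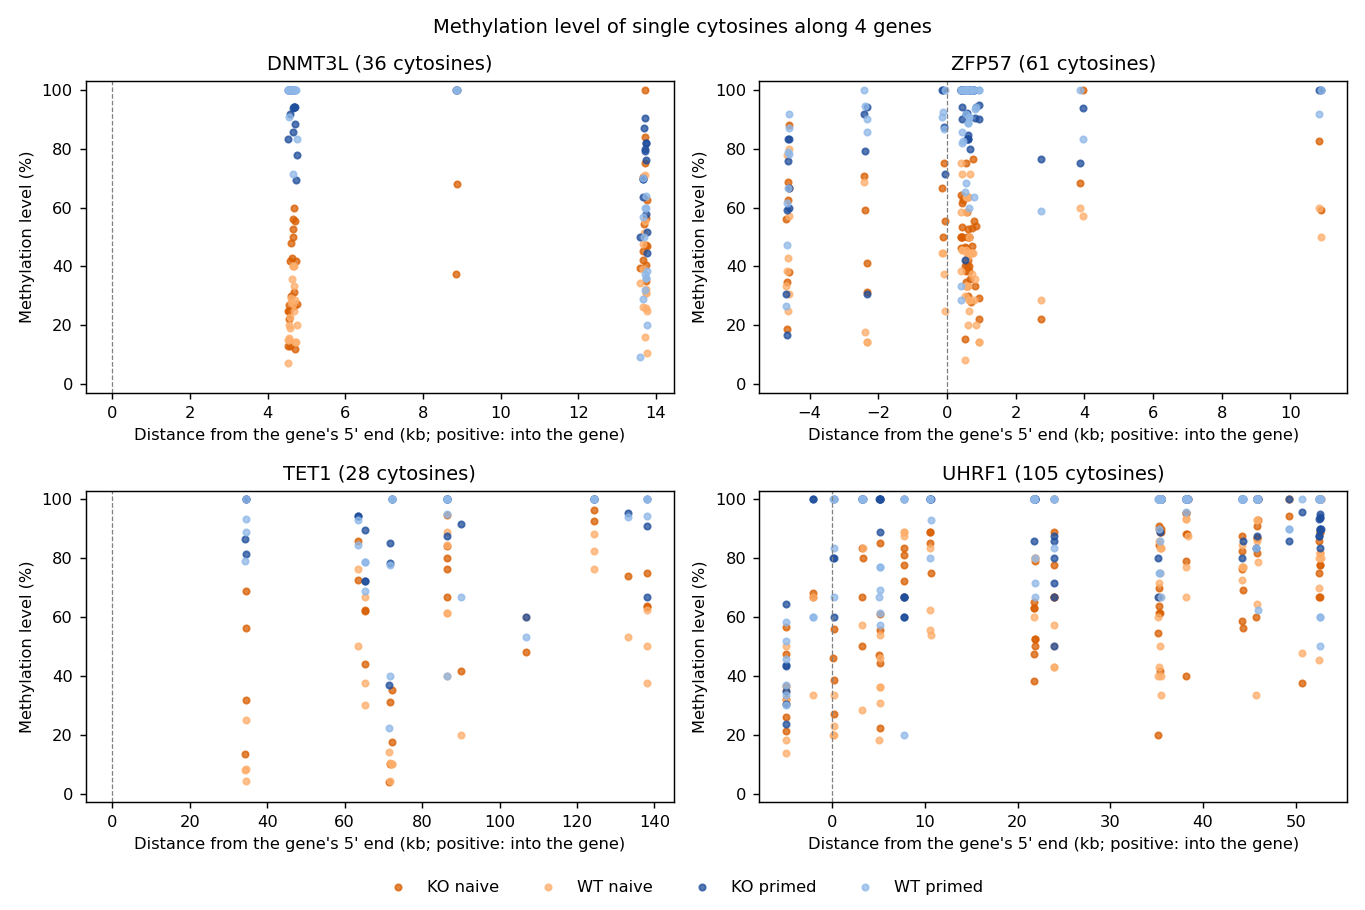
Methylation level (%, vertical axis) of every cytosine against its distance from the 5′ end of the gene's span (kb, positive into the gene) in DNMT3L, ZFP57, TET1 and UHRF1, 1 colour per library. At DNMT3L the block near 4.5 kb separates naive from primed libraries, from 7.14 to 60.0% against 69.2 to 100%, while the libraries overlap in the block near 13.5 kb.

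The TET genes, which encode the 5-methylcytosine dioxygenases, differed among themselves. TET1 averaged 59.0% ± 27.5 in KO naive and 43.6% ± 28.8 in WT naive, against 88.7% ± 15.4 in KO primed and 83.9% ± 21.6 in WT primed (28 cytosines). With unlisted cytosines filled in as unmethylated (33 cytosines), naive minus primed was -33.1 points in KO and -45.9 points in WT cells. Without filling in it was -29.7 and -40.2 points. No TET1 cytosine was higher in KO naive than in KO primed, and 1 was higher in WT naive than in WT primed. In the body of the gene, the sites called lower lay in several places. At 4 cytosines between 70354334 and 70354464, 34334 to 34464 bp from the 5′ end, levels were 13.3, 31.8, 56.3 and 68.8% in KO naive and 8, 4.17, 8.33 and 25% in WT naive. They were 86.7, 81.5, 100 and 100% in KO primed and 78.9, 88.9, 93.3 and 100% in WT primed. WT naive was the lowest library at each of these 4 sites. At 70392215 and 70392219, which lie 4 bp apart at 72215 bp from the 5′ end and had equal read numbers, levels were 17.6 and 35.3% of 17 reads in KO naive and 10% of 20 reads at both in WT naive, against 100% of 9 reads in KO primed and 100% of 6 reads in WT primed. The adjusted p at the first of these sites was 1.41e-03 for KO and 2.43e-03 for WT cells (Fisher's exact test).

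Between these places, at 70391644 (called in KO cells) and 70391662 (called in both genotypes), levels were 10.2% of 59 reads and 31.3% of 64 reads in KO naive and 4.17% of 24 reads and 10.3% of 29 reads in WT naive. They were 78.4% of 37 reads and 85.1% of 47 reads in KO primed and 40% of 10 reads and 77.8% of 18 reads in WT primed. Further calls lay at 70385255 and 70409983 in KO cells and at 70406420 in WT cells. The calls at 70457984, 70458055 and 70458066 in WT cells lay outside the body, past the 3′ end of the span. The tile at chromosome 10, 70406001 to 70407000, 86.5 kb into the gene, averaged 80.3% ± 10.2 in KO naive and 67.3% ± 19.9 in WT naive, against 97.5% ± 5.59 in KO primed and 87.0% ± 26.4 in WT primed (5 cytosines). It did not meet the rule of size in either genotype.

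TET2 was low near its start and uneven further in. Its 21 cytosines averaged 48.4% ± 26.9 in KO naive and 39.9% ± 27.2 in WT naive, against 76.5% ± 28.6 in KO primed and 64.6% ± 27.9 in WT primed, and 7 were called lower in KO and 4 in WT cells. The tile at chromosome 4, 106066001 to 106067000, just upstream of the start, had the lowest mean level of the 31 tiles over the 4 libraries. It averaged 20.6% ± 18.0 in KO naive and 12.7% ± 8.92 in WT naive, against 40.1% ± 25.3 in KO primed and 34.1% ± 16.9 in WT primed (6 cytosines). The tile also spans the printed TET2 sequence, but of the cytosines set on it only that at 106066796 was listed in all 4 libraries. The tile means thus rest mostly on cytosines outside that sequence. Before the midpoint of the span 10 TET2 cytosines averaged 69.3% in KO naive and 61.1% in WT naive, against 93.6% in KO primed and 84.6% in WT primed. Beyond it 5 averaged 40.2% in KO naive and 30.0% in WT naive, against 86.2% in KO primed and 61.4% in WT primed. TET3 was the most methylated of the genes in the primed libraries. Its 11 cytosines averaged 83.5% ± 7.42 in KO naive and 77.7% ± 21.7 in WT naive, against 94.5% ± 7.28 in KO primed and 97.2% ± 5.68 in WT primed, with 1 called lower in each genotype. Its naive minus primed difference was -10.95 points in KO cells and -19.5 points in WT cells.

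ZFP57, the imprint-protecting zinc-finger gene, was less methylated around its start in the naive libraries. Its 61 cytosines averaged 50.6% ± 17.1 in KO naive and 46.7% ± 23.5 in WT naive, against 88.03% ± 18.9 in KO primed and 87.2% ± 18.6 in WT primed. Of these, 23 were called lower in KO and 18 in WT cells, the most of any of the genes. The tile at chromosome 6, 29648001 to 29649000, the first kb of the gene, held 40 of them and averaged 46.8% ± 13.3 in KO naive and 48.5% ± 25.3 in WT naive, against 94.9% ± 10.4 in KO primed and 90.2% ± 17.7 in WT primed. In KO cells every cytosine of the tile was lower in the naive library, and in WT cells 85% were. Levels ran from 15.4 through a median of 48.5 to 76.5% in KO naive and from 8.33 through 44.4 to 100% in WT naive. In KO primed they ran from 42.3 through 100 to 100% and in WT primed from 28.6 through 100 to 100%. The naive and primed ranges overlapped in both genotypes. Within 500 bp of the 5′ end the naive minus primed difference was -38.9 points in KO and -21.2 points in WT cells over 14 cytosines, against -46.2 and -42.9 points over the 44 within 1 kb. The difference of the tile was as low in 6.03% of all tiles in KO cells and in 13.4% in WT cells. The tile 4.5 kb upstream, 29653001 to 29654000, stayed closer together, with 54.2% ± 22.3 in KO naive and 48.2% ± 21.2 in WT naive, against 59.5% ± 24.2 in KO primed and 67.3% ± 21.8 in WT primed (8 cytosines).

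TRIM28, the corepressor that ZFP57 recruits, was covered at few cytosines. Its 15 cytosines averaged 69.2% ± 30.5 in KO naive and 70.0% ± 22.7 in WT naive, against 85.6% ± 28.9 in KO primed and 84.7% ± 26.9 in WT primed, and 5 were called lower in KO and 3 in WT cells. The naive minus primed difference was -16.4 points in KO and -14.7 points in WT cells with the flanks, and -22.1 and -23.4 points over the 9 cytosines of the span alone. The tile at chromosome 19, 59060001 to 59061000, 5.5 kb into the gene, averaged 74.5% ± 19.4 in KO naive and 70.4% ± 14.3 in WT naive, against 99.3% ± 2.08 in KO primed and 96.9% ± 4.63 in WT primed (8 cytosines). It passed the rule of size in WT cells and missed the 25 points in KO cells by less than 1 point.

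Of the 31 tiles in the 10 genes, 8 were lower in KO naive than in KO primed by the rule of size (25.8%, beside 36.2% of all 51144 tiles) and 6 in WT naive than in WT primed (19.4%, beside 36.8%). None was higher in the naive library in either genotype, where 0.162% (KO) and 0.536% (WT) of all tiles were. The 4 tiles lower in both genotypes were those described at DNMT3L, ZFP57, DNMT3A and UHRF1, and they made up 50% of the KO list and 66.7% of the WT list. The median tile difference was -16.4 points in KO cells and -15.1 points in WT cells, beside -20.3 and -20.6 points over all tiles. The share of lower tiles stood below that of the data set, a difference that was not tested, while the mean over single cytosines was close to it. Cytosines of 1 tile share reads and are not independent of each other.

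**Figure D3:**
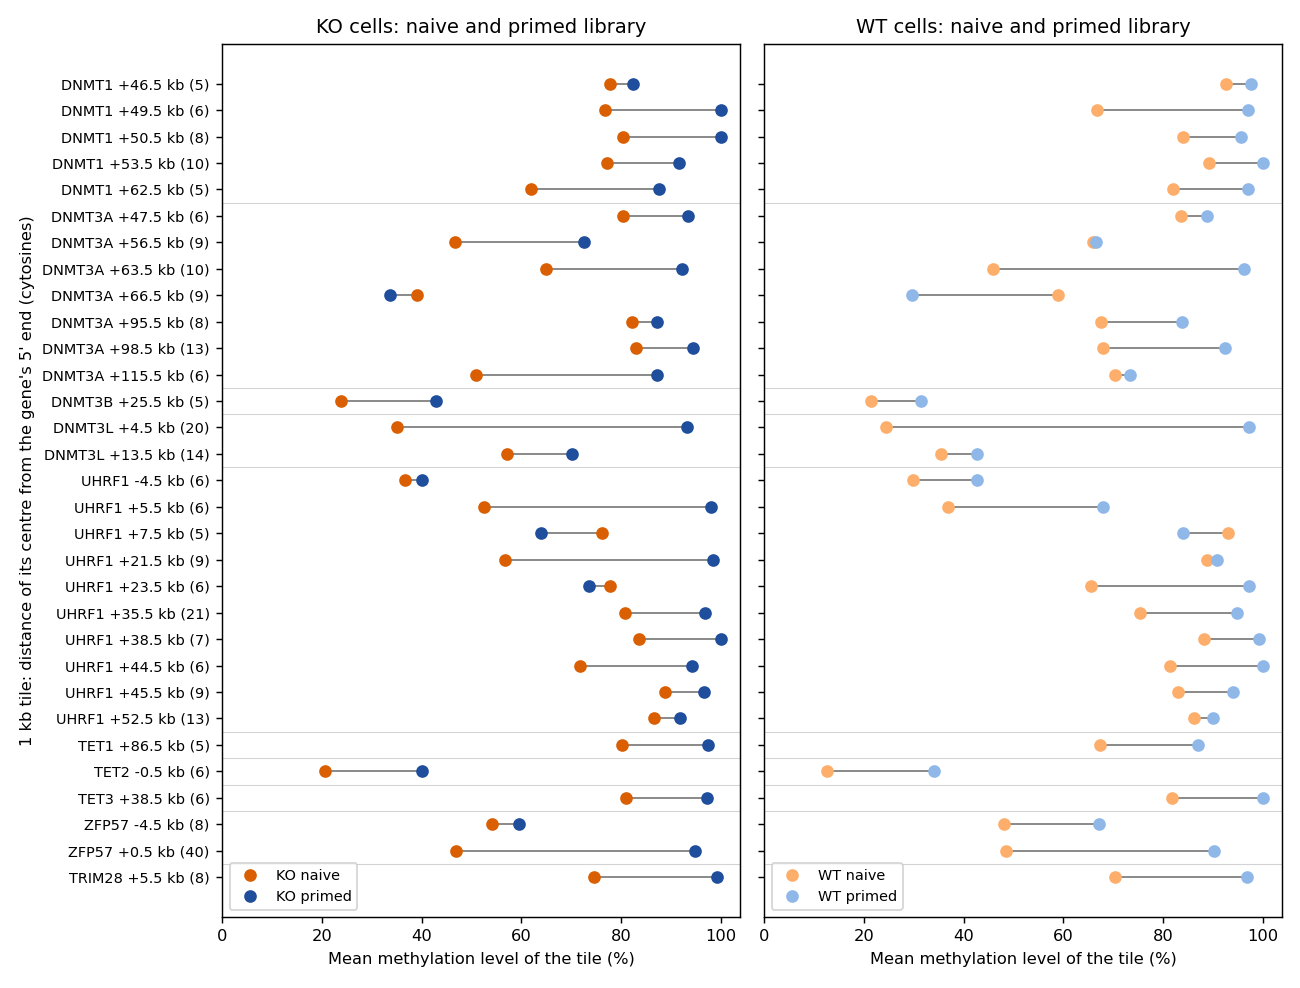
Mean methylation level (%, horizontal axis) of each of the 31 tiles in the naive and primed libraries, KO cells on the left and WT cells on the right, with the distance from the gene's 5′ end and the number of cytosines in each label. The longest lines are those of the DNMT3L tile at 4.5 kb in both panels, and the DNMT3A tile at 66.5 kb is the one whose WT naive point lies farthest above its WT primed point.

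The naive minus primed difference varied along the genes without a steady order. Within 1 kb of the 5′ end 56 cytosines of 5 genes averaged 43.3% ± 17.5 in KO naive and 41.0% ± 25.4 in WT naive, against 85.8% ± 22.6 in KO primed and 83.5% ± 24.6 in WT primed, but 44 of the 56 belonged to ZFP57. Between 25 and 50% of the length of the spans 84 cytosines of 9 genes had a naive minus primed difference of -30.9 points in KO and -36.5 points in WT cells. In the last 25% of the length 114 cytosines of 7 genes had differences of -14.3 points in KO and -14.3 points in WT cells. The rest of the first 25% had -22.3 points in KO and -22.1 points in WT cells, the stretch from 50 to 75% had -20.7 and -17.6 points, and the downstream flanks had -27.2 and -17.1 points. The upstream flanks beyond 1 kb had -11.5 points in KO and -19.2 points in WT cells. The local density of CpGs listed in any library ordered the differences in KO cells, over a narrow range, but not in WT cells. With 1 to 5 such CpGs within 250 bp the difference was -21.5 points in KO and -22.1 points in WT cells. With 6 to 15 it was -23.4 and -25.4 points, and with over 15 it was -24.8 and -23.04 points.

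The starts themselves were mostly seen through a few cytosines. Within 1 kb of the 5′ end, and counting every listed cytosine, ZFP57 had 45.3% methylated reads in KO naive (Wilson 95% interval 42.4 to 48.2%, 1126 reads) and 47.96% in WT naive (43.6 to 52.4%, 490 reads), against 94.2% in KO primed (92.5 to 95.6%, 921 reads) and 90.6% in WT primed (88.4 to 92.4%, 821 reads). UHRF1 had 38.9% in KO naive (32.9 to 45.3%) and 33.6% in WT naive (26.3 to 41.7%), against 78.6% in KO primed (64.1 to 88.3%) and 71.6% in WT primed (60.5 to 80.6%), over 42 to 234 reads. TET1 lay between 5.08 and 11.01% in the 4 libraries, and TRIM28 between 6.25 and 17.6% on 11 to 138 reads. TET2 had 9.80% in KO naive (17 cytosines) and 9.49% in WT naive (6), against 21.9% in KO primed (24) and 23.3% in WT primed (18). On 10 to 31 reads, TET3 had 54.8% in KO naive and 27.8% in WT naive, against 100% in KO primed and 91.7% in WT primed. DNMT1, on 20 to 93 reads, had 20.9% in KO naive (11.4 to 35.2%, 5 cytosines) and 40% in WT naive (21.9 to 61.3%, 3). It had 39.8% in KO primed (30.4 to 49.9%, 10) and 58.3% in WT primed (38.8 to 75.5%, 4). DNMT3A, on 20 to 119 reads, had 7.56% in KO naive (6 cytosines) and 6.90% in WT naive (2), against 30% in KO primed (2) and 30.8% in WT primed (3). Libraries thus pooled different cytosines, and only 1 at DNMT1, 1 at DNMT3A and 6 at TET2 had 5 reads in all 4 libraries. No cytosine was listed within 1 kb of the DNMT3L 5′ end, and 2 were listed at DNMT3B. The intervals cover counting error only. The variance between the strands of a CpG was 2.61 to 4.02 times that of independent reads, so they are too narrow.

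**Figure D4:**
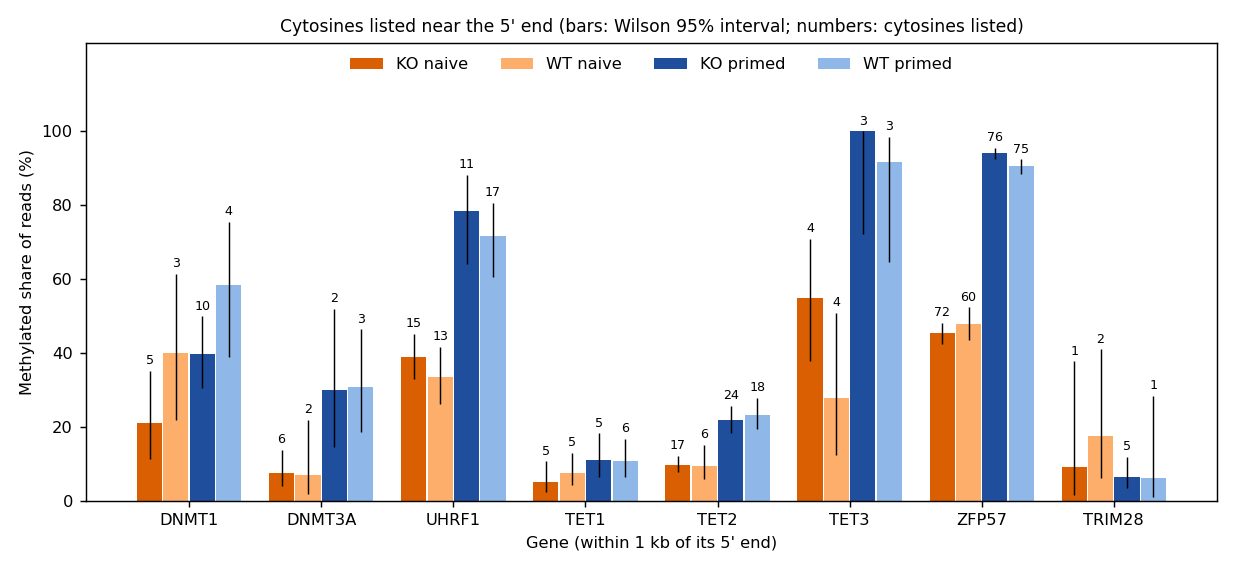
Share of methylated reads (%, vertical axis, bars from 0) over all cytosines listed within 1 kb of each gene's 5′ end, with Wilson 95% intervals and the number of listed cytosines above each bar. ZFP57 rests on 60 to 76 cytosines and shows naive bars at 45.3 and 47.96% beside primed bars at 94.2 and 90.6%, while the TET1 bars stay at or below 11.01% in all 4 libraries.

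KO primed and WT primed cells differed little at most of these genes, with DNMT3L and TET2 standing highest in KO primed relative to WT primed. Over the 460 cytosines the KO primed minus WT primed difference was 2.18 points, beside 0.973 points over the whole data set, with 175 cytosines higher and 150 lower in KO primed. By two-sided Fisher's exact tests with Benjamini-Hochberg adjustment, 0 of 460 cytosines were called higher (beside 0.216% of all cytosines) and 0 lower (beside 0.103%). At an unadjusted p under 0.05 by the same test, 22 were higher and 4 lower. The shares of all cytosines at that level were not taken, so these counts cannot be read as particular to the 10 genes. By gene the difference was 11.9 ± 19.2 points at TET2 (SD over 21 cytosines, 17 of them higher in KO primed), 8.47 ± 20.04 points at DNMT3L and 7.24 ± 16.02 points at DNMT3B, and between -2.72 and 4.83 points at the other genes. Each of these differences was smaller than its SD over cytosines, which is their spread and not the error of the mean. DNMT3L stood at 17.3 points when weighted by reads and 17.1 points at a minimum of 10 reads. TET2 stood at 6.02 points at 10 reads and turned to -3.04 points at 20 reads over 4 cytosines, and DNMT3B turned to -1.70 points when weighted by reads.

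By the rule of size 2 tiles were higher in KO primed than in WT primed (6.45%, beside 1.54% of all tiles) and 0 were lower (beside 0.8%). One was the second DNMT3L block, at 70.2% ± 14.6 in KO primed against 42.8% ± 17.8 in WT primed. Its KO primed levels ran from 44.4 through 72.8 to 90.5% and its WT primed levels from 9.09 through 38.0 to 70.0%, so the ranges overlapped. The other was the UHRF1 tile 5.5 kb into the gene, where KO primed ran from 88.9 to 100% and WT primed from 57.1 to 76.9%, without overlap, at 8.33 reads per cytosine in KO primed and 13.0 in WT primed. Of all tiles, 790 passed in this direction, and the number without overlap was not counted.

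Between the naive libraries genotype and medium differed together. The KO naive minus WT naive difference over the 460 cytosines was 2.52 points, beside 1.14 points over the whole data set, with 254 cytosines higher and 187 lower in KO naive. With cytosines weighted equally, TET1 showed the largest difference at 15.3 ± 13.8 points (SD over 28 cytosines), with 24 cytosines higher in KO naive, followed by DNMT3L at 11.6 ± 21.5 points (31 of 36 higher) and TET2 at 8.57 ± 12.6 points (16 of 21 higher). DNMT1 went the other way at -4.46 ± 20.2 points, with 37 of 58 cytosines lower in KO naive, and turned to 3.06 points at a minimum of 10 reads over 11 cytosines. At 10 reads DNMT3A stood at -11.9 points over 28 cytosines, against 0.0415 points at the main setting. ZFP57 stood at 15.5 points over 14 cytosines, against 3.94 points, and DNMT3L at 16.3 points over 20. At 20 reads DNMT3L stood at 21.1 points over 12 cytosines and TET2 at 2.72 points over 4. The TET1 difference was the one that exceeded its SD over cytosines. That SD is the spread between cytosines, not the error of the mean, so this does not make TET1 more reliable than the others. KO naive was read more deeply than WT naive in TET1, at a median of 25 against 16 reads, and the part of depth in the difference was not tested.

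Among single cytosines 1 was called higher in KO naive (0.217%, beside 0.391% of all cytosines) and 0 lower (beside 0.218%) by Fisher's exact test with adjustment. At an unadjusted p under 0.05 by the same test, 29 were higher and 16 lower, and the shares of all cytosines at that level were not taken. The called cytosine lay in the second DNMT3L block, at 45669282. It was methylated in 37 of 44 reads in KO naive and 5 of 31 in WT naive (adjusted p = 2.22e-05, Fisher's exact test), and stood at 79.2% of 24 reads in KO primed and 31.8% of 22 reads in WT primed. In that block all 14 cytosines were higher in KO naive than in WT naive, by 21.6 points on average, which is below the 25 points of the rule. By the rule of size 0 tiles were higher in KO naive (beside 3.33% of all tiles) and 1 was lower (3.23%, beside 2.21%). This was the UHRF1 tile at 4930001 to 4931000, 21.5 kb into the gene, with 56.8% ± 12.0 in KO naive and 88.9% ± 14.5 in WT naive (9 cytosines), against 98.4% ± 4.76 in KO primed and 90.9% ± 14.1 in WT primed. Its cytosines had 19.4 reads on average in KO naive and 5.00 in WT naive. It was also lower in KO naive than in KO primed by the rule, a comparison that shares the KO naive library.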

How the data were processed

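DNA methylation was measured in 4 libraries by bisulfite sequencing after TruSeq methyl capture. Conversion was 99%, per the labels' protocols, and the build hg19, per the submitters' processing notes. Which aligner and caller were used, and whether duplicate reads were removed, is not given in the sources used here. Each library's deposited table gives read counts (context and methylated coverage) and a methylation level, made by the authors as a fraction, per the file headers. None of these tables held a row with 0 methylated reads, so low levels are raised by this selection. The libraries listed 2018895 to 2340330 cytosines with 23916547 to 40697882 reads.

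Levels were recomputed as methylated over context coverage for cytosines with at least 5 reads in all 4 libraries, strands apart and chromosome Y left out, and averaged with equal weight per cytosine. Minus-strand cytosines made up 88.3% of the 460. Fisher's exact test (two-sided, Benjamini-Hochberg adjusted over the whole data set) was used for single cytosines, and a rule of size with no test for 1 kb tiles. Both were run on simulated independent reads in which scattered single cytosines, but no whole tiles, were lowered. The simulation thus did not check the tile rule against known changes. It cannot show how the Fisher calls behave where reads are not independent. The members and lists were chosen with earlier results of these data known. Named were all 10 genes, the tiles passing the rule, those of highest and lowest level over the libraries, and up to 5 called cytosines per comparison with the largest difference; other tiles and cytosines in the text were chosen after their values were seen. Gene ends are those of the spans, rounded to kb; strands came from the RefSeq table, except for DNMT3L and TRIM28. Exons and introns were not assigned, since no hg19 annotation was used here. The spans and flanks also touch neighbouring genes, by the RefSeq gene order among them DNMT3L-AS1, TET2-AS1, ARRDC5, BOLA3, MOG, CHMP2A and UBE2M, whose cytosines were not separated. Other genes of the pathway were not analysed here.

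Alternatives were minimums of 10 and 20 reads, a limit of 100 reads, filling in of unlisted cytosines, merged strands, read weighting, scaled reads, spans without flanks, other window sizes, 50 points, and 10 cytosines per tile. Tools were Python 3.11.15, pandas 2.3.3, numba 0.67.0 and scipy 1.17.1.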

Additional observations from a re-analysis of the deposited data

Results flagged for a closer look

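Naive minus primed differences went in opposite directions in the KO and WT cells at 1 of the tiles where at least 1 of the compared differences reached 25 points. This was the UHRF1 tile at chromosome 19, 4932001 to 4933000, at 4.23 points in KO cells and -31.7 points in WT cells. Its means were 77.8% ± 14.1 in KO naive and 65.5% ± 27.3 in WT naive, against 73.6% ± 14.1 in KO primed and 97.2% ± 6.80 in WT primed (SD over 6 cytosines).

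KO minus WT differences went in opposite directions in the naive and primed states at 1 tile where at least 1 difference reached 25 points, and in the means of 3 genes. Tiles with opposite but smaller differences are not listed. The UHRF1 tile at 4930001 to 4931000 stood at -32.1 points in the naive and 7.51 points in the primed libraries. DNMT3B stood at -0.940 points in the naive and 7.24 points in the primed libraries, which became -3.12 and -1.70 points, in the same direction, when weighted by reads. TET3 stood at 5.85 points in the naive and -2.72 points in the primed libraries, which became 4.53 and 2.31 points, in the same direction, at a minimum of 10 reads (3 cytosines). TRIM28 stood at -0.794 points in the naive and 0.896 points in the primed libraries, both far below the SD over its cytosines, and at 4.02 and 2.72 points over the span alone. Each of these contrasts rests on 1 library per group, and the differences between them were not tested.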

How the results depend on the processing

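The naive minus primed mean over the 10 genes was lower in the naive libraries under every alternative, and its values other than those below moved by less than their counting interval. At a minimum of 10 reads (139 cytosines) it was -21.9 points in KO cells, and at 20 reads (20 cytosines) -10.8 points in KO and -8.96 points in WT cells. KO naive minus WT naive became 5.12 points at 10 reads, 11.9 at 20 reads and 4.25 when weighted by reads. KO primed minus WT primed became 4.20, 13.7 and 4.21 points under the same 3 settings. Within 1 kb of the starts, naive minus primed became -29.5 points at 10 reads (13 cytosines) in KO cells, -16.1 (KO) and -21.8 points (WT) at 20 reads (4 cytosines), and -34.2 (KO) and -30.4 points (WT) within 500 bp. There, KO minus WT became 8.35 points at 10 reads in the naive and -3.04 points at 20 reads in the primed libraries.

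Called cytosines between naive and primed libraries numbered 40 (KO) and 41 (WT) at 10 reads, 4 and 5 at 20 reads, and 0 and 0 with scaled reads, against 82 and 73. Between naive libraries 2 were called at 10 reads, 4 with merged strands and 0 with scaled reads. Between primed libraries 1 was called at 10 reads, 1 at 20 reads and 3 with merged strands. Tiles called between naive and primed libraries numbered 2 in KO cells at 10 reads, 0 and 0 (KO and WT) at 20 reads, 1 and 2 at 50 points, and 3 and 3 with at least 10 cytosines. Between naive libraries 0 tiles passed at 10 reads, 20 reads, 50 points or 10 cytosines, 2 with merged strands and 3 with filling in. Between primed libraries 1 passed at 10 reads, 20 reads or 10 cytosines, and 0 at 50 points. Lower counts at higher minimums come with fewer cytosines tested. Shares over all cytosines and all tiles were not taken under the alternatives. The cause of the other shifts was not tested.

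Among the other values under an alternative, 28 changed sign. Of these, 22 started from a difference whose counting interval held 0, and 6 from one whose interval left out 0. Naive minus primed became 23.8 points (KO) and 71.3 points (WT) at DNMT3A at 20 reads (1 cytosine) and 5.59 points (KO) at UHRF1 at 20 reads (3 cytosines). KO minus WT became 3.06 points at DNMT1 in the naive libraries at 10 reads (11 cytosines) and -3.04 points at TET2 in the primed libraries at 20 reads (4 cytosines). At the ZFP57 start it became -2.15 points in the primed libraries at 10 reads (8 cytosines). Which gene had the largest naive minus primed difference depended on the setting. Weighted by reads it was TET1 in WT cells (-47.1 points) and ZFP57 in KO cells (-38.1 points), and at 10 reads it was ZFP57 in WT cells (-48.3 points). No paired analysis was possible because each group held 1 library and the labels carry no replicate numbers, and for the same reason no library could be left out.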
